A study of Mus musculus with 12 samples.

Results

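Tags that crosslinked to eIF4G2, a translation initiation factor, were counted on the 5′ UTRs of 103 cell adhesion and axon guidance genes in cultured mouse cortical neurons. The genes were taken by symbol from the 3366 named 5′ UTRs in the tables and make up 3.06% of them. They comprise 24 cadherins and protocadherins, 14 adhesion molecules of the immunoglobulin class and their contactin-like partners, 18 semaphorins, plexins and neuropilins, 10 ephrins and Eph receptors, 7 netrin and slit pathway genes, 24 synaptic organizers, 4 integrin genes and 2 others. Unc50, Itgbl1 and Itgb1bp1 matched by symbol alone and held 3 tags between them. In cross-linking immunoprecipitation (CLIP), ultraviolet light fixes a protein to the RNA it touches, and the RNA fragments recovered with the protein are sequenced as tags. The neurons were primary cortical cultures from embryos of the outbred CD-1 strain, 3 dishes pooled for each replicate, and they were either left at rest or depolarized with KCl. Depolarized cultures had been silenced with tetrodotoxin and DL-AP5 for 2 h, then received 55 mM KCl for 1 h and 30 min without it. All cultures, resting ones included, received cycloheximide for 2 min before harvest. There were 6 resting libraries (replicates 1 to 6) and 5 depolarized libraries (replicates 1, 2, 3, 4 and 6), because the table labelled depolarized replicate 5 was identical to resting replicate 5 in all 3367 rows and the 2 were counted as 1 sample.

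Adhesion molecules hold neurons and synapses together, and guidance molecules steer growing axons by attraction and repulsion. Ligands such as slits, semaphorins and ephrins act on receptors of the Robo, plexin, neuropilin and Eph families, while neurexins on the presynaptic side bind neuroligins and leucine-rich repeat proteins on the postsynaptic side. eIF4G2 is a relative of the scaffold eIF4G that supports initiation on messages with structured 5′ UTRs or upstream reading frames. The hexamer CGCGGC is the sequence that the study associates with eIF4G2.

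CGCGGC was found on the transcript strand of 27 of the 102 adhesion and guidance 5′ UTRs that have a sequence in GENCODE M21 (GRCm38). The sites below come from 7 of the 9 genes that hold it and have at least 10 tags, all but Cdh2 and Sema6a, shown so that the sequence behind the later counts can be read. They are given 5′ to 3′ with the hexamer in capitals, from the longest transcript of each gene, with at most 12 bases on either side. Every one lies in the 5′ UTR, and all but the Plxna4 window span 30 bases.
Pcdh17, chr14:84445852-84445881, plus strand: gcagcttcgctgCGCGGCtgcatctctccc
Negr1, chr3:156561891-156561920, plus strand: ccacgctccggaCGCGGCcgggcgccccga
Plxna4, chr6:32588169-32588192, minus strand: gcgagcCGCGGCggcagcaggcag
Nrxn2, chr19:6418816-6418845, plus strand: tcggagcggcacCGCGGCggggcgggcggg
Nrp2, chr1:62703317-62703346, plus strand: ggatcgctctgcCGCGGCtctgacatccac
Pcdh19, chrX:133687504-133687533, minus strand: ggctcggggctgCGCGGCgctccctgggca
Pcdh19, chrX:133687371-133687400, minus strand: cgggactcctccCGCGGCctccggggccac
Lrfn5, chr12:61524540-61524569, plus strand: tctctgtgtgtgCGCGGCcgccctgcttct
The sites stood at varied distances from the start codon. Those of Pcdh19 ended 251 and 118 bases before it, that of Negr1 286 bases before it and that of Plxna4 962 bases before it. Nrxn2 held 3 sites, of which the first is printed.

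The libraries were small. Totals over all 5′ UTRs ranged from 306 to 3224 tags at rest and from 264 to 5240 after depolarization, 15767 in all. Where a library had no tag on a 5′ UTR, up to 3 tags remained possible, which is 573 CPM (tags scaled to a total of 1000000 on 5′ UTRs) in the deepest library and 11364 CPM in the shallowest. No animal or litter is named for each replicate, and the sources differ on how many there were, so spreads and P values describe these libraries. Of the 9 neuronal marker genes 5 carried tags, 179 in all and chiefly on Syt1, the calcium sensor of synaptic vesicles. Excitatory markers had 12 tags on 4 of 6 genes and inhibitory markers 7 tags on 4 of 5. Only 1 of 6 astrocyte markers was listed, Slc1a2 with 10 tags. The same held for 1 of 4 progenitor markers, Sox2 with 4 tags, and 1 of 5 microglial markers, Aif1 with 1. None of the 7 markers of the oligodendrocyte lineage or the 3 of vessels was among the named 5′ UTRs, so they have no count. In such bulk cultures, fewer cells of a type and less RNA per cell cannot be told apart, nor can the amount of a message and the binding per message.

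Adhesion and guidance 5′ UTRs drew 832 tags, or 5.28% of all tags. Their mean was 8.08 tags per 5′ UTR, against 4.68 over all named 5′ UTRs, although the median was 2 in both. Tags were found on 101 of the 103 (98.1%, against 97.4% of all), the exceptions being Ephb4, a receptor of B-class ephrins, and Pcdhb2, a clustered protocadherin. At least 10 tags over the 11 libraries were reached by 21 (20.4%, against 9.42% of all), and tags in 6 or more libraries by 16 (15.5%, against 4.90%). A single tag was all that 38 of them had (36.9%, against 40.8% of all), and on these no difference was detectable at this depth. The 21 held 594 of the 832 tags (71.4%). The 5 with the most tags held 269 (32.3%). Tags were seen in both conditions for 49 genes (47.6%, against 34.9% of all), at rest only for 28 (27.2%, against 27.2%) and after depolarization only for 24 (23.3%, against 35.4%).

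**Figure D1:**
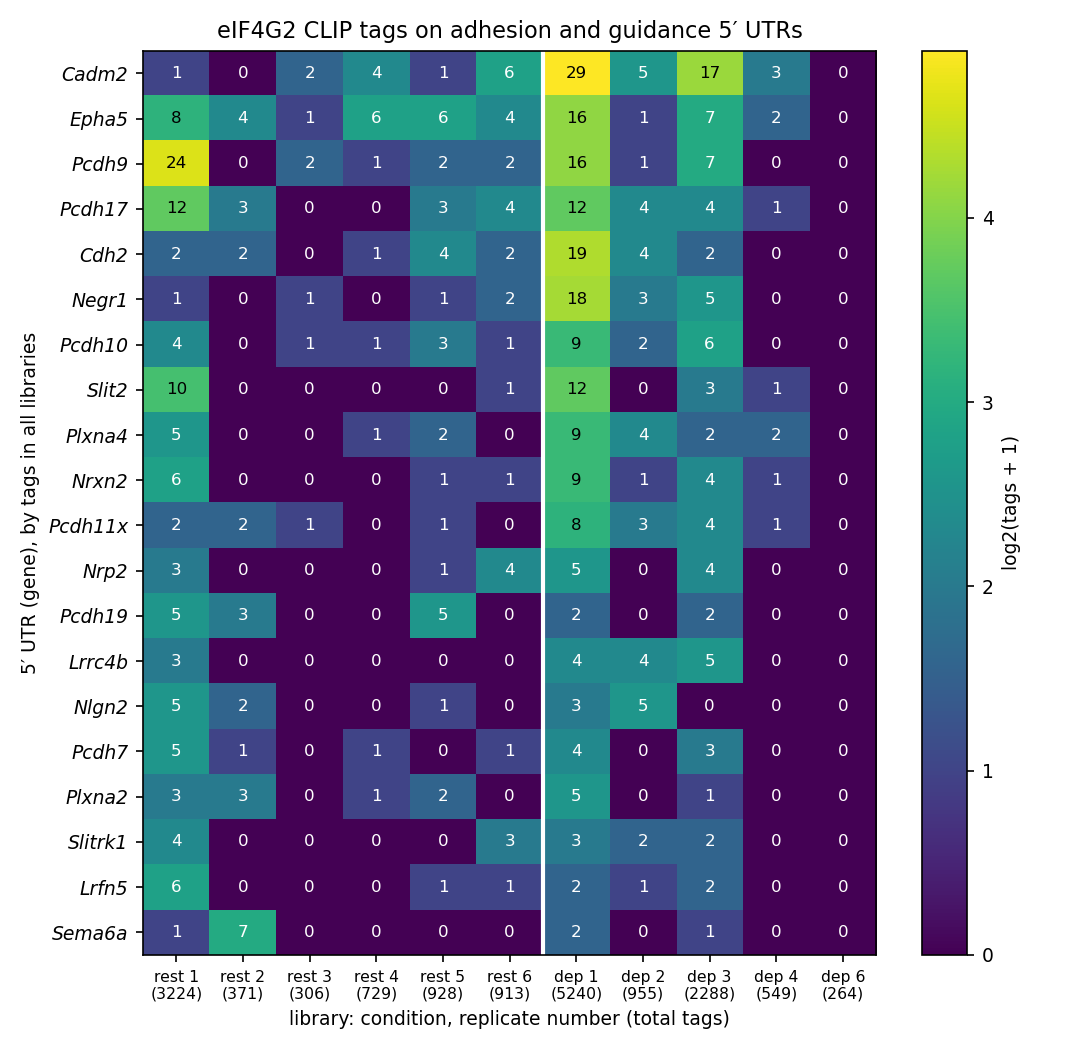
Tags on 20 of the 21 adhesion and guidance 5′ UTRs with at least 10 tags (rows, most tags at the top) in each library (columns: rest, resting; dep, depolarized; total tags in parentheses), with cells coloured by log2(tags + 1) and the count printed. Epha5 has a tag in all 6 resting libraries and Sema6a has 7 of its 11 tags in resting replicate 2.

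The share of tags on these 5′ UTRs averaged 5.62% ± 1.43 (SD, n = 6) in resting libraries and 4.59% ± 1.49 (SD, n = 5) in depolarized ones. Resting replicates 1 to 6 gave 5.68, 8.36, 5.23, 4.25, 4.85 and 5.37%, and depolarized replicates 1, 2, 3, 4 and 6 gave 5.27, 6.49, 4.90, 3.64 and 2.65%. The groups overlapped. Within replicate numbers the depolarized share was lower in 5 of 5, with differences of -0.334 to -2.72 percentage points. The difference between the means, -1.03 percentage points, was -0.598 without replicate 6. Pooled over libraries the shares were 5.49% at rest and 5.13% after depolarization. The exact 95% binomial intervals, which cover counting error only, were wide in the small libraries, for example from 1.07 to 5.39% in depolarized replicate 6 with its 7 tags. No test was made of this share, because the genes were chosen with results of these data known.

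**Figure D2:**
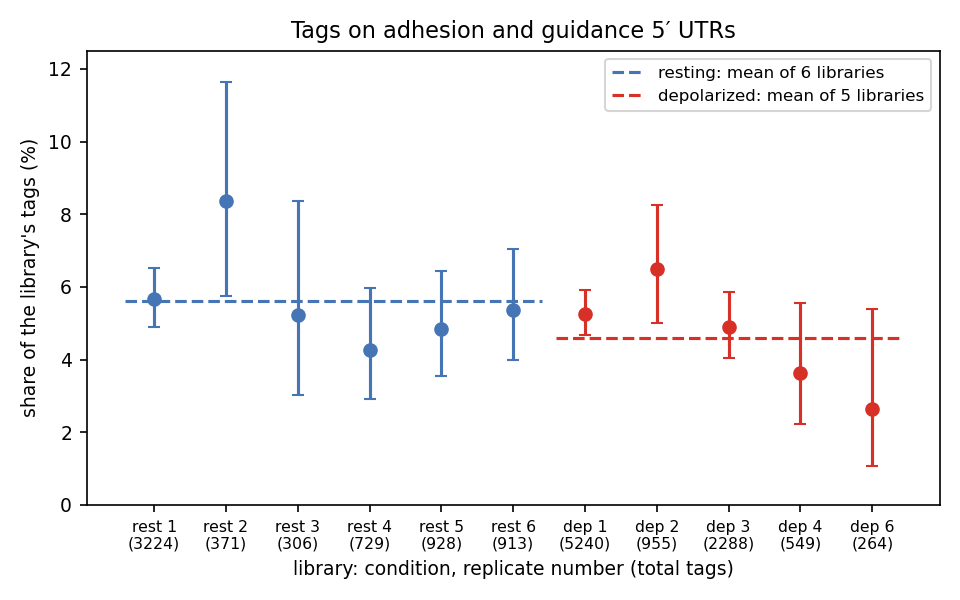
Share of each library's tags on the 103 adhesion and guidance 5′ UTRs (y axis, %; points, 1 library each; bars, exact 95% binomial intervals; dashed lines, means of 5.62% at rest and 4.59% after depolarization). The ranges of the 2 conditions overlap and resting replicate 2 is the highest at 8.36%.

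No adhesion or guidance 5′ UTR was called changed by depolarization once the spread between replicates was counted. With edgeR's quasi-likelihood test on the 317 5′ UTRs with at least 10 tags, 0 of the 21 were higher and 0 lower at a Benjamini-Hochberg adjusted P below 0.05 (background 0% in each direction). At an unadjusted P below 0.05 the counts were also 0 and 0, where 7.57% of all tested 5′ UTRs were higher and 0.315% lower. These unadjusted counts moved with the processing, at most to 2 of 101 higher with no filter, where 2.62% of all were, and to 2 of 21 lower with library totals, where 1.26% of all were. DESeq2 and limma called 0 of the 21 at an adjusted P below 0.05, and the share over all 317 is not given for them. Adjusted edgeR P values of the 21 ran from 0.630 to 0.995. Their median log2 fold change was 0.05, against 0.52 over all 317, so relative to the typical tested 5′ UTR it was -0.48. That gap was -0.21 without replicate 6, at a minimum of 5 tags and in replicates 1 to 3 alone, and in replicates 4 to 6 alone, where 3 members were tested, it was 0.29. Of the 21, 11 lay above 0 (52.4%, against 66.6% of all) and 7 above the median of all. The zero point moved with the scaling. The median of all was 0.38 with library totals and 1.08 with DESeq2 size factors, and in both cases 7 of the 21 lay above it. In none of the 21 were the CPM values of the conditions separate, a background of 0.315% in the higher direction and 0% in the lower.

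**Figure D3:**
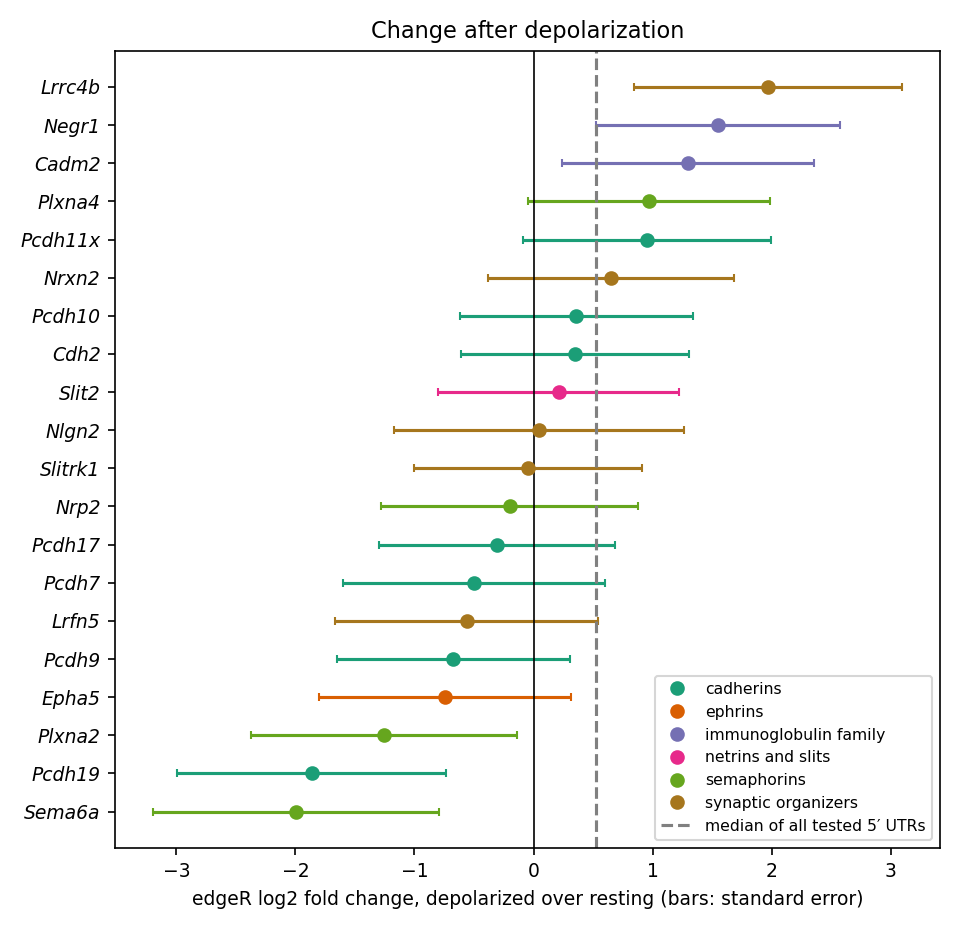
edgeR log2 fold change (x axis, depolarized over resting; bars, standard error) of 20 of the 21 adhesion and guidance 5′ UTRs with at least 10 tags, coloured by family, with 0 as a solid line and the median of all 317 tested 5′ UTRs, 0.52, dashed. Lrrc4b, Negr1 and Cadm2 lie at the top and Plxna2, Pcdh19 and Sema6a at the bottom, and no adjusted P value is below 0.630.

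Among molecules that join neurons to each other, cadherins and protocadherins held the most tags, 254, with a tag on 23 of 24. Their share of a library averaged 1.90% ± 0.750 (SD, n = 6) in resting and 1.10% ± 0.679 (SD, n = 5) in depolarized libraries, lower in 5 of 5 replicate pairs. The 7 tested members were all protocadherins of the non-clustered kind apart from Cdh2. In order of replicate number, Pcdh9 had 24, 0, 2, 1, 2 and 2 tags at rest, then 16, 1, 7, 0 and 0 after depolarization. Most of its tags thus came from replicate 1 of each condition, and its log2 fold change was -0.67 ± 0.98 (SE; edgeR, adjusted P = 0.908). Pcdh17, which takes part in presynaptic assembly, had 12, 3, 0, 0, 3 and 4 tags at rest, then 12, 4, 4, 1 and 0 after depolarization. Its pooled counts of 22 and 21 came from 8 libraries, with a log2 fold change of -0.31 ± 0.99 (SE; edgeR, adjusted P = 0.949).

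Pcdh19, an X-linked protocadherin whose mutation causes an epilepsy that chiefly affects females, gave the lowest value of the family. It had 5, 3, 0, 0, 5 and 0 tags at rest, then 2, 0, 2, 0 and 0 after depolarization. Tags were present in 3 of 6 resting and 2 of 5 depolarized libraries, so both conditions had libraries without a tag. The log2 fold change was -1.86 ± 1.13 (SE; edgeR, adjusted P = 0.657), and mean CPM was 2504 ± 3441 (SD, n = 6) against 251 ± 385 (SD, n = 5). It was -0.78 with the duplicated table used under both labels, each then with 5 tags, -0.79 with limma and -2.85 without replicate 3. Its 5′ UTR also overlaps an exon of Gm26851, annotated on the opposite strand. As with Pcdh7, which overlaps an opposite-strand exon too, reads of the partners cannot be told apart if strand was ignored. The use of strand in counting is not given in the sources used here.

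Cdh2, the N-cadherin that bridges synaptic membranes, had 2, 2, 0, 1, 4 and 2 tags at rest, then 19, 4, 2, 0 and 0 after depolarization. Depolarized replicate 1 held 19 of its 36 tags (log2 fold change 0.35 ± 0.96, SE; edgeR, adjusted P = 0.949). Pcdh10, Pcdh11x and Pcdh7 had 27, 22 and 15 tags, and log2 fold changes of 0.36, 0.96 and -0.50. Mean CPM went against the sign of the fold change for Cdh2 (2314 at rest, 1738 after depolarization), Pcdh10 (1701 and 1287) and Pcdh11x (1726 and 1648). For Pcdh7 it went with the sign (1119 and 415). The 7 clustered protocadherins listed held 12 tags in all. They are uncertain, because their 5′ UTRs overlap other annotated genes on the same strand, and that of Pcdhb22 overlaps an exon of Pcdhb21. How alike their sequences are was not measured.

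Immunoglobulin-class adhesion molecules had 141 tags on 14 genes, and 99 of these lay on Cadm2 and Negr1. Pooled over libraries their share was 0.510% of resting and 1.16% of depolarized tags. Taken library by library it was 0.723% ± 0.567 (SD, n = 6) and 0.889% ± 0.517 (SD, n = 5), a difference smaller than the spread. That difference, 0.167 percentage points, ran from 0.072 without resting replicate 1 to 0.389 without depolarized replicate 6. The share was higher after depolarization in 3 of 5 pairs.

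Cadm2, a homophilic and heterophilic synaptic adhesion molecule, had the most tags of all 103 genes. Resting replicates 1 to 6 gave 1, 0, 2, 4, 1 and 6 tags, and depolarized ones 29, 5, 17, 3 and 0. In replicates 1 to 3 the depolarized libraries were higher by tags, and in replicates 4 and 6 they were not. Mean CPM was 3330.4 ± 3185 (SD, n = 6) in resting and 4733 ± 2789 (SD, n = 5) in depolarized libraries, and the log2 fold change was 1.30 ± 1.06 (SE; edgeR, adjusted P = 0.829), or 0.56 without replicate 1. Negr1, a glycolipid-anchored member of the IgLON group, had 1, 0, 1, 0, 1 and 2 tags at rest, then 18, 3, 5, 0 and 0 after depolarization. Replicate 1 alone supplied 18 of its 26 depolarized tags (log2 fold change 1.55 ± 1.03, SE; edgeR, adjusted P = 0.707), and without it the log2 fold change was 0.68. The other 12 genes of the class held 42 tags. They include L1cam and Nrcam of the L1 group and Cntnap2, a neurexin relative that gathers potassium channels on axons, with 5, 9 and 5 tags.

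Guidance ligands and receptors carried fewer tags. Semaphorins, plexins and neuropilins had 97 tags on 18 genes, and their mean share was 0.866% ± 0.932 (SD, n = 6) in resting and 0.568% ± 0.221 (SD, n = 5) in depolarized libraries. Resting replicate 2 alone had 2.70%, and without that library the resting mean was 0.500%, below the depolarized one. Receptors led the group. Plxna4 had 5, 0, 0, 1, 2 and 0 tags at rest, then 9, 4, 2, 2 and 0 after depolarization (log2 fold change 0.97 ± 1.02, SE; edgeR, adjusted P = 0.862). Plxna2 had 3, 3, 0, 1, 2 and 0 tags, then 5, 0, 1, 0 and 0 (log2 fold change -1.25 ± 1.12, SE; edgeR, adjusted P = 0.836), and without replicate 2 the log2 fold change was -0.47. Nrp2, the neuropilin that pairs with plexins for class 3 semaphorins, had 17 tags and a log2 fold change of -0.20.

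Sema6a, a transmembrane ligand of these plexins, had 1, 7, 0, 0, 0 and 0 tags at rest, then 2, 0, 1, 0 and 0 after depolarization. The 7 tags of resting replicate 2 made up most of its count, at 18868 CPM where the next resting library had 310 CPM. Its log2 fold change of -1.998 ± 1.20 (SE; edgeR, adjusted P = 0.657) rests on that library. Without replicate 2 it had fewer than 10 tags and was not tested. The other semaphorins had 1 to 7 tags each, Sema6d the most.

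Ephrins and Eph receptors had 75 tags on 10 genes, of which 55 lay on the receptor tyrosine kinase Epha5. Epha5 had 8, 4, 1, 6, 6 and 4 tags at rest, then 16, 1, 7, 2 and 0 after depolarization. It was tagged in all 6 resting libraries and had the highest mean CPM of the 103 genes at rest, 5935 ± 3178 (SD, n = 6), against 2161 ± 1558 (SD, n = 5) after depolarization. The 2 ranges overlapped. A two-sided exact permutation test of the CPM over 462 splits gave P = 0.0433 before and 0.936 after adjustment over the 317 5′ UTRs. The splits took no account of replicate numbers. Epha5 was the only 1 of the 21 members below 0.05 unadjusted, where 3.47% of all tested 5′ UTRs were. In edgeR the log2 fold change was -0.74 ± 1.06 (SE; adjusted P = 0.908), and it turned positive, 0.10, with DESeq2 size factors. The ligands Efna2 and Efnb2 had 4 tags each.

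Slit2, a secreted repellent that acts through Robo receptors, supplied 27 of the 55 tags of the netrin and slit pathway. It had 10, 0, 0, 0, 0 and 1 tags at rest, then 12, 0, 3, 1 and 0 after depolarization, so replicate 1 held 22 of the 27 (log2 fold change 0.21 ± 1.01, SE; edgeR, adjusted P = 0.974). The netrin receptor Dcc and the slit receptor Robo1 had 8 tags each. Slit1 had 5 tags, all after depolarization, 4 in replicate 1 and 1 in replicate 2. Unc5b, the repulsive netrin receptor, had 4 tags, again all after depolarization.

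Synaptic organizers had 195 tags, with at least 1 tag on every one of their 24 genes. The mean share was 1.07% ± 0.503 (SD, n = 6) in resting and 1.41% ± 0.591 (SD, n = 5) in depolarized libraries, higher in 4 of 5 pairs. The difference of 0.342 percentage points ran from 0.146, without depolarized replicate 2, to 0.494, without resting replicate 1, when single libraries were left out. Pooled over libraries the order was the other way, 1.36% of resting and 1.15% of depolarized tags. Nrxn2, a presynaptic neurexin, had 6, 0, 0, 0, 1 and 1 tags at rest, then 9, 1, 4, 1 and 0 after depolarization (log2 fold change 0.65 ± 1.03, SE; edgeR, adjusted P = 0.908).

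On the postsynaptic side, Lrrc4b, a netrin-G ligand family protein that binds presynaptic phosphatases, had the highest log2 fold change of the 21, 1.97 ± 1.12 (SE; edgeR, adjusted P = 0.630). Its tags were 3, 0, 0, 0, 0 and 0 at rest, then 4, 4, 5, 0 and 0 after depolarization. At rest it was thus seen in 1 library only. Nlgn2, the neuroligin of inhibitory synapses, had 8 tags in each condition, and replicate 2 supplied 5 of the depolarized ones. Slitrk1 and Lrfn5, which also bind presynaptic phosphatases, had 14 and 13 tags and log2 fold changes of -0.04 and -0.56. Integrin genes, led by Itgb1 with 6 tags, and the secreted protein Fstl5 with 5 tags were sparse.

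**Figure D4:**
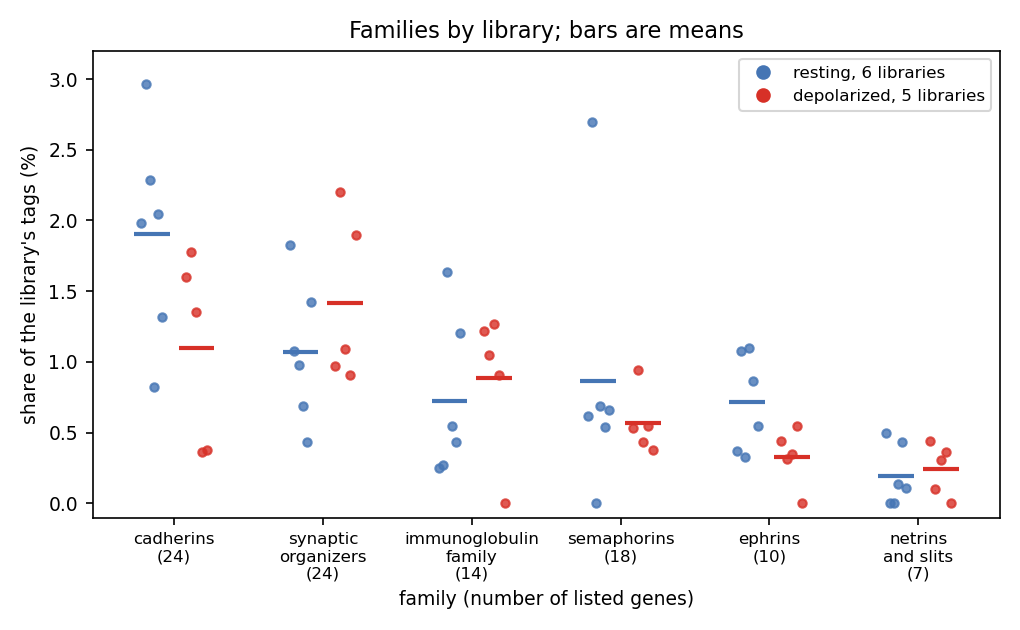
Share of each library's tags (y axis, %) on 6 families of adhesion and guidance genes (x axis, number of listed genes in parentheses), with 1 point per library and bars at the means. Cadherins have a mean of 1.90% at rest and 1.10% after depolarization with overlapping ranges, and 1 resting library stands apart for semaphorins at 2.70%.

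The same question was asked of tags summed over the libraries of each condition, with the binomial test and the threshold of P below 0.2 that the study's methods use. This test has no term for the spread between replicates, so its calls describe the summed tags. Of the 101 tagged adhesion and guidance 5′ UTRs, 5 had more tags after depolarization (4.95%, background 5.21%) and 8 had fewer (7.92%, background 4.51%). Those with more were Cadm2, Negr1, Lrrc4b, Slit1 and Pcdh11x. Those with fewer were Pcdh19, Pcdh9, Lrrc4c, Lrfn3, Pcdh8, Sema6a, Epha5 and Lrfn5. After adjustment over all 3280 tagged 5′ UTRs only Cadm2 stayed below 0.05 (exact binomial test, P = 0.000337, adjusted P = 0.0460), where 0.427% of all had more and 0.305% fewer at that threshold. Its depth-scaled ratio was 2.68 in favour of depolarization, with an exact 95% counting interval of 1.47 to 5.23. For Negr1, with 5 and 26 tags, the ratio was 3.62 (1.37 to 12.1; exact binomial test, P = 0.00372), and for Lrrc4b, with 3 and 13, it was 3.02 (0.829 to 16.5).

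Pcdh19 had 13 resting and 4 depolarized tags, a ratio of 4.67 in favour of rest (counting interval 1.44 to 19.7; exact binomial test, P = 0.00443). It was the 1 member of the 13 whose call held with each replicate number left out in turn. How many of the pooled calls over all 5′ UTRs held in this way was not counted. The calls of Cadm2 and Negr1 ended without replicate 1 (exact binomial test, P = 0.256 and 0.549), as did those of Pcdh9, Pcdh8, Lrrc4c, Lrfn3, Lrfn5, Slit1 and Pcdh11x. Sema6a, with 8 and 3 tags, had 1 and 3 without replicate 2, and its call ended. Within replicates 4 to 6 alone, Cadm2 had 11 resting and 3 depolarized tags, a depth-scaled log2 fold change of -0.21 (exact binomial test, P = 1.0). Lrrc4c, the netrin-G1 ligand, had 4 resting and 0 depolarized tags, and Lrfn3 and Pcdh8 each had 7 and 2.

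The 5′ UTRs of these genes were long and comparatively poor in G and C. Their median length was 466 bases, against 307 for the 3302 listed 5′ UTRs with a sequence, and their median GC content was 59.6%, against 65.9%. Per kilobase they carried 14.4 tags, against 12.2 over all. The 21 with at least 10 tags had a median length of 852 bases, against 467 for all 5′ UTRs with that many tags, and they carried fewer tags for their length, 29.7 per kilobase against 48.3. Pcdh17 had the longest at 2532 bases and Lrrc4b the shortest of the 21 at 82 bases. Per 100 bases of 5′ UTR, the highest levels were 19.5 tags for Lrrc4b, 13.2 for Epha5, 10.04 for Cadm2, 7.80 for Pcdh9 and 7.73 for Negr1. The UCSC transcripts on which tags were counted can differ from the GENCODE ones used for length. With the longest 5′ UTR annotated for each gene the level was 11.7 for Lrrc4b and 6.44 for Epha5, which then came after Cadm2, Pcdh9 and Negr1.

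Upstream ATG codons were present in 80 of the 102 5′ UTRs (78.4%, against 66.6% of all), with a median of 3 against 1. Per kilobase the rates were 7.47 and 6.46. An upstream reading frame that also closed before the main start codon occurred in 76 (74.5%, against 60.8%). Cadm2, Epha5, Cdh2 and Negr1 had no upstream ATG, whereas Pcdh17 had 19, Pcdh11x 16 and Pcdh9 and Lrfn5 14 each. Among the 21 tested, the 17 with an upstream ATG had a median log2 fold change of -0.04 and the 4 without one 0.82, a description with no test.

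CGCGGC occurred in 26.5% of the 102, against 36.8% of all listed 5′ UTRs, at 0.762 and 1.55 sites per kilobase. Of the tags on adhesion and guidance 5′ UTRs, 33.1% lay on those with the hexamer, against 46.5% of all tags. Among the 100 tagged members with a sequence, 27 held it (27.0%, exact 95% interval 18.6 to 36.8%). The upper end of this interval reaches the share over all, and the difference was not tested. The 20 hexamers made of 3 C and 3 G, several of which overlap CGCGGC in sequence, were set beside it. Most also occurred in a smaller share of these 5′ UTRs, and the gap for CGCGGC, 9.80 percentage points, was the largest of the 20, ahead of 8.37 for CGGCGC and for GCGGCC. That order holds for the longest transcript only. With the longest annotated 5′ UTR, CGCGGC occurred in 28.0% against 36.1% of all, and the other hexamers were not counted. The lower GC content stands beside this difference, and its part was not tested. Of the 21 tested, the 9 with CGCGGC had log2 fold changes from -1.998 to 1.55 with a median of -0.20. The 12 without it ran from -1.25 to 1.97 with a median of 0.13, so the ranges overlapped.

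**Figure D5:**
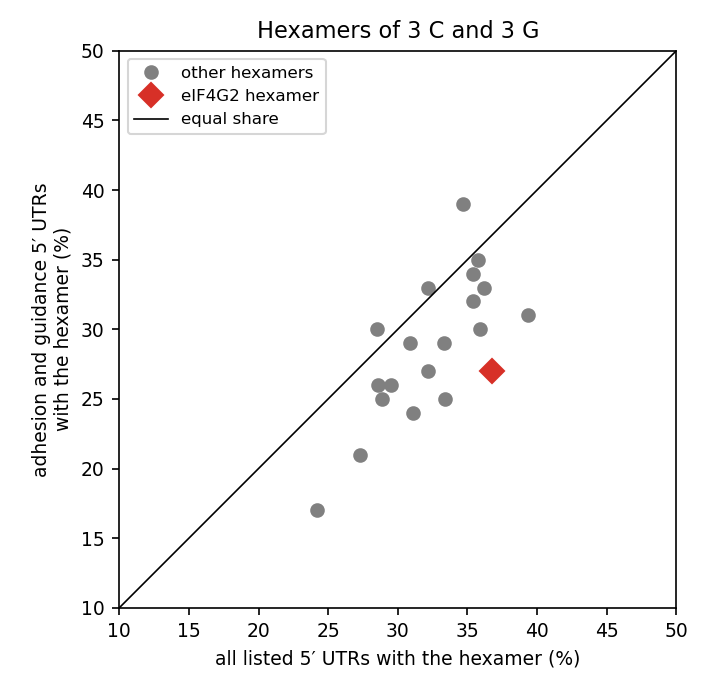
Share of 5′ UTRs that hold each of the 20 hexamers of 3 C and 3 G, among all listed 5′ UTRs (x axis, %) and among the 100 tagged adhesion and guidance 5′ UTRs with a sequence (y axis, %), with the line of equal share. The eIF4G2 hexamer lies below the line at 36.8% and 27.0%.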

How the data were processed

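The authors filtered and demultiplexed single-end reads with CLIP Tool Kit, removed linkers, collapsed exact duplicates, aligned to mm10 with Rsubread and counted tags with summarizeOverlaps over the 5′ UTR of each gene's longest UCSC transcript. The deposited values are raw counts per library, not normalized. How multiply mapped reads were treated is not given in the sources used here.

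A row names no gene. It has 0 tags (0%) and stayed out of totals and tests. Genes were chosen by symbol, and genes, families and lists were chosen with earlier results of these data known. The genes named are Pcdh19 and Sema6a, those with at least 10 tags, those that pass the pooled test and the one with the most tags in each family. The values of 1 gene with at least 10 tags are not reported here, though it entered every fit and count. Others in the text are examples picked after their values were seen.

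edgeR 4.0.16 (R 4.3.3) fitted condition with TMM factors over the 317 5′ UTRs with at least 10 tags and library sizes over all 5′ UTRs, with Benjamini-Hochberg adjustment over these. Alternatives were DESeq2 1.42.0, limma 3.58.1, other scalings and filters, left-out replicates and a replicate block. The pooled test scaled summed tags to the mean of the condition totals, rounded them and applied a two-sided exact binomial test. A pseudocount of 0.1 enters its log2 fold changes. Exact permutation P values were adjusted over all 317, not over the genes named as first planned. Intervals and floors reflect counting error alone, on the tags left after exact duplicates were collapsed. Scripts were tested on simulated data.

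The labels number 6 replicates per condition, where the paper's methods give 5 and the series' design text 3. Conditions were pooled once barcoded, per the paper's methods, without saying whether within a replicate. Same-numbered samples' deviations from the condition means correlated at 0.314, 0.233, 0.154, 0.258 and 0.251 for replicates 1, 2, 3, 4 and 6. Differently numbered samples were not compared in this way, so whether replicate numbers pair the samples was not tested. Pairs in the text are samples that share a replicate number.

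Sequences, positions and overlaps come from GENCODE M21 (GRCm38), and 102 of the 103 genes had a 5′ UTR sequence there. Hexamers were searched on the transcript strand only. Python 3.11.15, numpy 2.4.6, pandas 2.3.3, scipy 1.17.1 and matplotlib 3.10.9 were used.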

Additional observations from a re-analysis of the deposited data

Results flagged for a closer look

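Among the 60 groups of libraries examined (30 measures in 2 conditions), 11 held a library that stood apart from the rest by Dixon's 95% criterion. About 1 in 20 groups, or 3.0, would be flagged for independent, normally distributed values of equal precision. Values with many zeros, from libraries of 264 to 5240 tags, are not of that kind, so the 11 cannot be judged against 3.0. Resting replicate 2, with 371 tags, stood apart most often. It was highest for Sema6a (18868 CPM, next 310), Plxna2 (8086 CPM, next 2155), Nlgn2 (5391 CPM, next 1551), the share of tags on semaphorins, plexins and neuropilins (2.70%, next 0.686%) and the share on all adhesion and guidance 5′ UTRs (8.36%, next 5.68%).

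Resting replicate 1 was highest for total tags (3224, next 928), Slit2 (3102 CPM, next 1095) and Lrrc4b (931 CPM, from 3 tags, with 0 in the other resting libraries). Resting replicate 6 was highest for Nrp2 (4381 CPM, next 1078). After depolarization, replicate 2 was highest for Nlgn2 (5236 CPM, next 573). Depolarized replicate 6, the smallest library, had the lowest share of immunoglobulin-class adhesion molecules, 0% of its tags where the next had 0.911%.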

How the results depend on the processing

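In all 17 alternatives to the edgeR fit, 0 adhesion and guidance 5′ UTRs were higher and 0 lower at an adjusted P below 0.05, the replicate block among them. The share over all tested 5′ UTRs at that threshold is given for the main fit only, 0% in each direction. Adding the replicate block changed no edgeR call of these genes, and the pooled and permutation tests were not run with it. At an unadjusted P below 0.05, where the counts were 0 and 0, there were 2 of 21 lower with library totals (1.26% of all tested were) and 1 of 21 lower without replicate 3 (0.760% of all). There was 1 higher of 21 with limma (13.6% of all), of 43 at a minimum of 5 tags (7.96%) and of 21 in replicates 1 to 3 alone (19 of all 264). With no filter 2 of 101 were higher (2.62% of all) and 1 lower (1.80%). The difference in their mean share of tags, -1.03 percentage points, kept its sign in all 11 alternatives, from -0.598 without replicate 6 to -1.68 in replicates 4 to 6 alone, with -1.19 as the mean of the 5 differences within replicate pairs.

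Single edgeR log2 fold changes were less stable, and the cause was not tested. Of 20 genes, 17 moved by over 1.5 times or changed sign when some replicate number was left out and at least 10 tags remained. Lrrc4b without replicate 1 and Sema6a without replicate 2 had fewer and could not be judged there. With DESeq2 size factors, and with DESeq2, these turned positive: Epha5 (0.10 and 0.11), Pcdh17 (0.19 and 0.20), Nrp2 (0.40 and 0.43), Pcdh7 (0.065 and 0.071) and Slitrk1 (0.24 and 0.26). With limma the values were 0.032 for Pcdh17, -0.33 for Cdh2, -0.17 for Pcdh10, 0.12 for Nrp2, 0.47 for Slitrk1 and 0.23 for Lrfn5. Nlgn2 turned to -0.075 with library totals, -0.036 at a minimum of 5 tags, -0.60 with the replicate block and -0.037 with 12 libraries as labelled. Slit2 turned to -0.037 with 12 libraries. In replicates 1 to 3 alone Slit2 was at -0.28, Nrp2 at 0.74, Nlgn2 at -0.23 and Slitrk1 at 0.33, and in replicates 4 to 6 alone Cadm2 was at -0.21. With each replicate left out in turn where at least 10 tags remained, the ranges that crossed 0 were -0.60 to 0.73 for Cdh2, -0.18 to 0.68 for Pcdh10, -0.018 to 0.38 for Slit2, -1.18 to 0.62 for Nrp2, -0.031 to 0.21 for Nlgn2 and -0.59 to 0.74 for Slitrk1. Slit2, Nrp2, Nlgn2 and Slitrk1 had no fit without replicate 1, nor had Nlgn2 without replicate 2, so their ranges leave those replicates in.

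Pooled calls numbered 5 with more tags and 8 with fewer. They became 2 and 2 with a threshold of 0.05 (background 2.56% and 1.25%), 1 and 0 after adjustment at that threshold (0.427% and 0.305%), and 1 and 2 in replicates 4 to 6 alone (3.73% and 1.44%). Leaving out single replicates gave 1 to 5 with more (1.32 to 5.38%, against 4.53 to 5.32% of all) and 5 to 9 with fewer (6.12 to 9.68%, against 2.10 to 4.78%). Replicates 1 to 3 alone gave 4 with more (4.49%, against 5.16%) and 10 with fewer (11.2%, against 5.06%). With libraries weighted equally 7 had more (6.93%, against 7.41% of all) and 17 fewer (16.8%, against 8.26%), and at a minimum of 10 tags 4 of 21 had more (33.8% of all did) and 5 fewer (12.3% of all). In replicates 4 to 6 alone the pooled log2 fold change was -0.21 for Cadm2. No fold is given where both conditions had at most 3 tags, as for Negr1 there with 3 and 0, while Pcdh11x was at -0.067 with libraries weighted equally. A minimum of 2 or 3 tags left 63 or 50 tagged 5′ UTRs in place of 101, and tags in 2 libraries left 58. CGCGGC occurred in 27.0%, and among other hexamers GCCCGG in 39.0% and GGGCCC in 17.0%. With 264 tags in the smallest library, a 5′ UTR without a tag there could still hold up to 11364 CPM, and the part of depth in these shifts was not tested.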

Other observations

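Partners and effectors of adhesion and guidance receptors came from a list of 88 genes chosen with earlier results of these data known. Most are intracellular, but Reln is secreted, and Vldlr, Adam10 and the Ptpr and Adgrl genes encode membrane proteins. The list held 402 tags on 51 tagged 5′ UTRs, 123 at rest and 279 after depolarization. In edgeR 0 of the 11 with at least 10 tags passed an adjusted P below 0.05, the smallest being 0.176, and 1 was higher at an unadjusted P below 0.05 (9.09%, background 7.57%). By the pooled test 9 of 51 had more tags after depolarization (17.6%, background 5.21%) and 1 had fewer (1.96%, background 4.51%). That test has no term for the spread between replicates, and these calls were not repeated with replicates left out. Of the 9, Farp1 had its 6 tags in depolarized replicate 1 alone and Evl its 5 in depolarized replicate 2 alone. The others had tags in at least 2 libraries. Dpysl2, a collapsin response mediator protein that acts downstream of semaphorins, had 3, 0, 1, 2, 1 and 4 tags at rest and 57, 6, 10, 3 and 1 after depolarization, so it carried 88 tags, more than any adhesion or guidance gene. Depolarized replicate 1 held 57 of them. Its log2 fold change was 1.98 ± 1.09 (SE; edgeR, adjusted P = 0.630). Enah, an actin regulator in growth cones, had 11 tags, all after depolarization, with 3 in replicate 1 and 8 in replicate 3 (edgeR, adjusted P = 0.176). Fyn, a kinase recruited by adhesion and guidance receptors, had 11 and 27 tags (edgeR log2 fold change 0.27 ± 0.93, adjusted P = 0.949). Depolarized replicate 1 held 23 of the 27.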
